A study of Arabidopsis thaliana with 4 samples.

Results

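Transcript levels of 40 genes of the UDP-glycosyltransferase (UGT) family were compared between shoots of Arabidopsis thaliana seedlings exposed to the hormone abscisic acid (ABA) and mock-treated shoots. The members were chosen by name alone, as every gene on the array whose annotated symbol begins with UGT and a number. They are 40 of 11368 genes named among 19371 tested probe sets, each with 1 probe set, and 40 of 58 such symbols in the RefSeq gene table of the TAIR10.1 assembly. The plants were wild type, of the Col-0 strain, with no transgene or mutation named in the labels. Seedlings grew for 14 days on upright plates in 24 h light, were covered for 5 min with a solution of basal salts and 0.1% Tween 20 with or without 100 uM ABA, and were collected 4 h later. Each group had 2 biological replicates, each a pool of 20 to 24 shoots cut from their roots and hybridised to its own array. A whole-shoot pool mixes all leaf cell types, so fewer cells of a type and less RNA per cell cannot be told apart.

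UGT enzymes move a sugar, mostly glucose, from a UDP-sugar onto small acceptor molecules. The products are usually more soluble, less reactive and easier to store in the vacuole. In plants the acceptors include hormones such as ABA, auxin, cytokinins and salicylate, flavonoids, the phenolic acids and alcohols that lead to sinapate esters and lignin, glucosinolate precursors and sterols. The number in a UGT name marks a family and the letter after it a subfamily, so genes that share both are close relatives by protein sequence. The glucose ester of ABA is a storage form from which the active hormone can be released by beta-glucosidases.

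The treatment was visible in genes that ABA is known to induce. Of 7 such genes, listed with earlier results of these data known, 4 were named, so their rise is not independent support. All 4 rose, by 2.79 to 5.38 on the log2(intensity + 16) scale (limma, Benjamini-Hochberg adjusted p of 0.0166 to 0.0188). Of all tested probe sets 3.97% were called higher. The deposited values are linear intensities, some of them below 0, and the log2 scale used here adds 16 after setting values below 0 to 0. As deposited, the ABA arrays were dimmer (median tested intensity 12.4 and 12.9, against 16.9 and 17.0 for mock), and the median log2 change of all tested probe sets was -0.13. Changes after quantile normalization, which takes this shift away, are therefore given where they alter the call of a UGT gene. A noise level was set on each array at the size of its 1st percentile, between 7.54 and 8.76. Of 7 leaf and shoot markers 5 were named, with a summed intensity of 5204.5 and 4892 in ABA and 6526 and 7013 in mock shoots. As deposited 4 of the 5 fell, and after quantile normalization 1 did (RCA, -0.52). All 5 lay in the brightest of 5 intensity groups of probe sets. In that group 36.3% were called lower as deposited, against 19.6% of all tested probe sets. RCA, LHCB4.1, LHCB4.2 and LHB1B2 were read on probe sets of a kind that can bind related transcripts. Of 5 root markers 2 were named. PYK10, which encodes a beta-glucosidase found mainly below ground, read 104 and 119.9 in ABA and 320.5 and 279.7 in mock shoots and fell. EXPA7, a root hair gene, was called higher by 0.12 (limma adjusted p = 0.0491), though it lay below the noise level on each array. The guard cell marker FMA read 21.6 and 23.9 in ABA and 43.7 and 34.5 in mock shoots and did not pass (limma adjusted p = 0.0761). The part of tissue makeup in the results below was not tested.

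After ABA, 4 UGT genes rose, 6 fell and 30 did not pass the threshold (limma, Benjamini-Hochberg adjusted p under 0.05 over all probe sets). UGT76E12, UGT84A1, UGT84A3 and UGT85A7 rose. UGT72E1, UGT78D1, UGT71D1, UGT71C5, UGT80B1 and UGT72B3 fell. The higher calls are 10% of the family, against 3.97% of all tested probe sets, and the lower calls 15%, against 19.6%. The median log2 change of the 40 genes was -0.047. With 2 arrays against 2, an exact permutation test of a single gene cannot go below p = 0.333, so each call rests on the spread that limma pools over probe sets. None of the 10 calls, nor any other call, held with 3 arrays, whichever array was dropped, and the lowest adjusted p among the UGT genes was then 0.0863 to 0.110 (limma), while 12 to 15 of them had an unadjusted p below 0.05 (19 when the 4 arrays were used). The changes of the 10 genes kept their sign when any array was left out, which had to be so because their groups did not overlap.

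**Figure D1:**
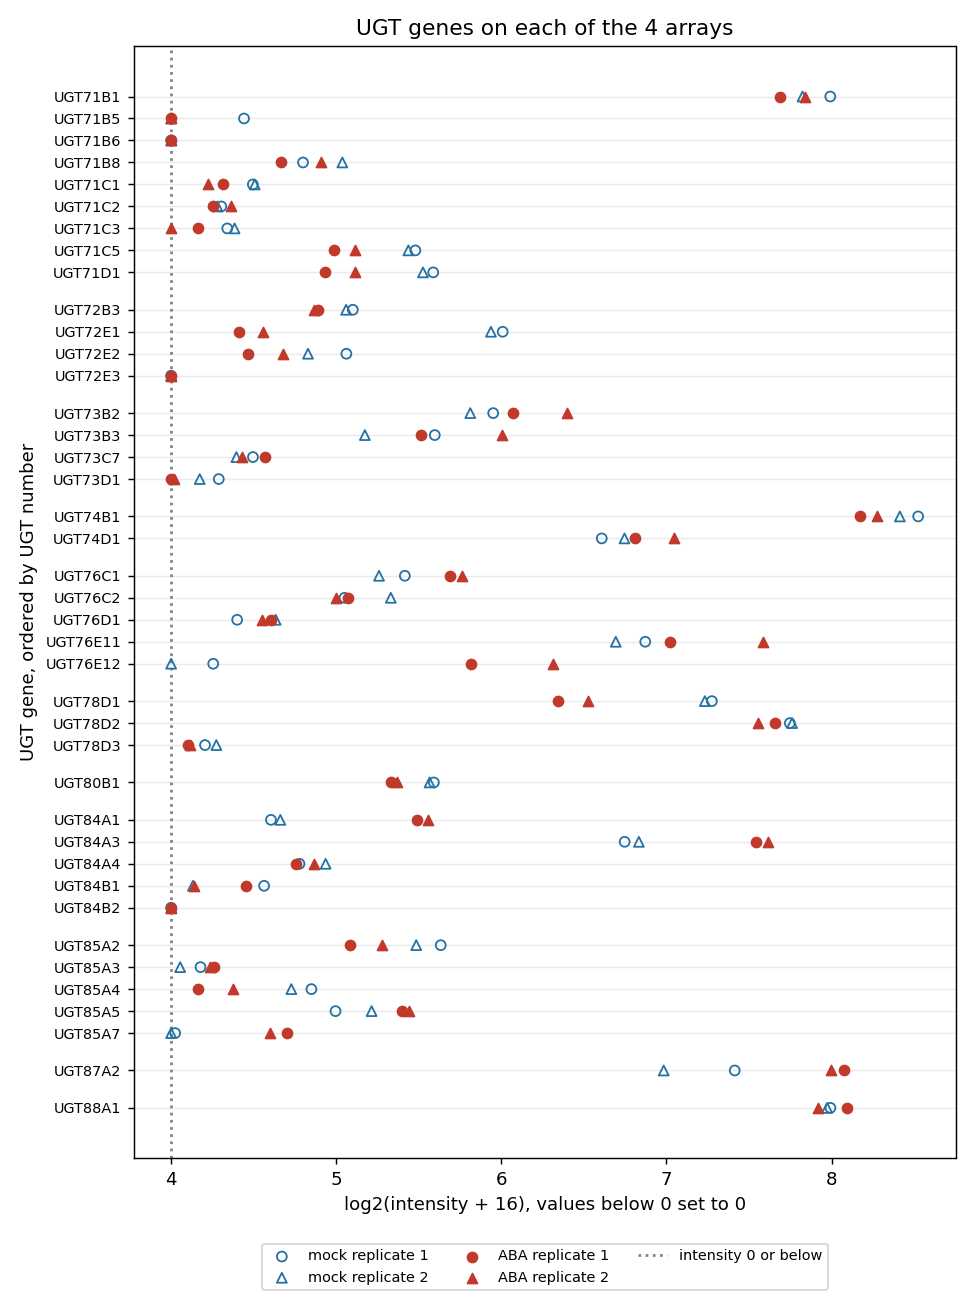
Level of each of the 40 UGT genes on each of the 4 arrays, on the log2(intensity + 16) scale (horizontal axis), by UGT number (vertical axis); filled red symbols are ABA and open blue symbols mock arrays, circles replicate 1 and triangles replicate 2. The ABA and mock symbols of UGT72E1, UGT76E12, UGT84A1 and UGT84A3 are well apart, while those of UGT71B6, UGT72E3 and UGT84B2 all sit on the line for intensities of 0 or below.

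The 2 ABA arrays both lay above the 2 mock arrays in 11 of the 40 genes (27.5%) and both below them in 16 (40%). Over all tested probe sets these shares were 15% and 50.8%. The groups overlapped in the remaining 13 genes. On all 4 arrays 22 UGT genes were above the noise level, 8 were above it on 1 to 3 arrays, and 10 on none. Of the 10 called genes, 7 were above noise on every array. The exceptions were UGT72E1, which was below noise in ABA shoots, and UGT76E12 and UGT85A7, which were below noise in mock shoots.

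**Figure D2:**
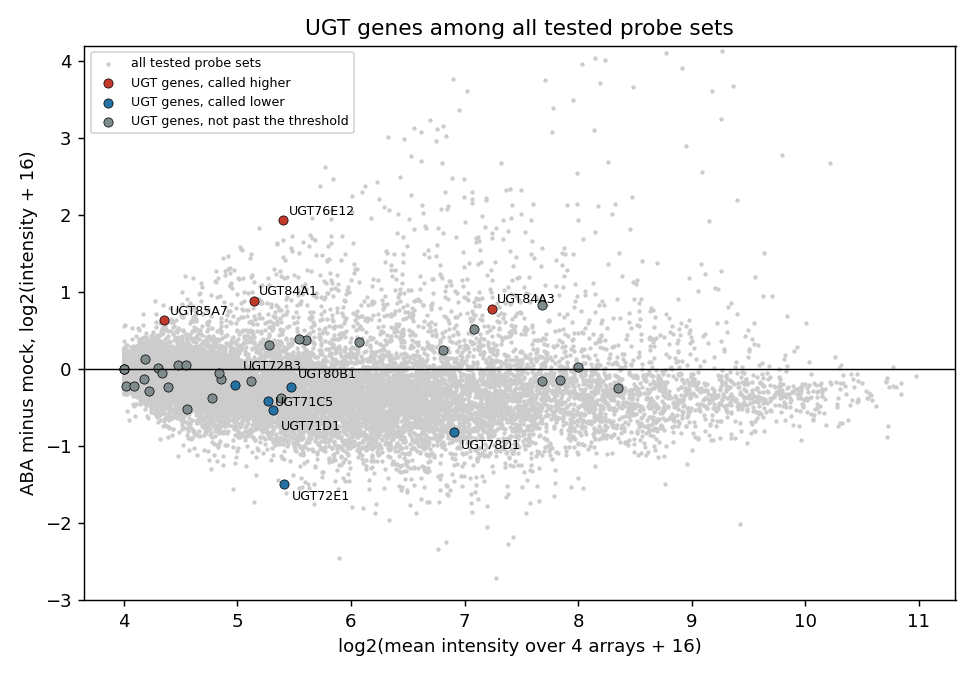
Log2 change after ABA (vertical axis, ABA minus mock) against the mean intensity over 4 arrays (horizontal axis, log2 after adding 16) for all 19371 tested probe sets in grey, with the 40 UGT genes in colour and the 10 called ones named; 5 probe sets lie outside the plotted range. UGT76E12 at 1.94 and UGT72E1 at -1.49 are the outermost UGT genes, and the grey cloud lies mostly below 0 at middle and high intensities.

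Calls also depended on the scaling of the arrays. After quantile normalization 5 UGT genes were higher (12.5%, against 4.6% of all probe sets) and 1 was lower (2.5%, against 5.22%). UGT72E1, UGT76E12, UGT84A1, UGT84A3 and UGT85A7 passed in the same direction as deposited, after quantile normalization, after centring each array on its median and after scaling to the spiked control sets. Median centring gave 10 higher and 2 lower genes (9.69% and 12.5% of all probe sets), and spike scaling 4 and 13 (2.71% and 41.7%). UGT72B3 and UGT80B1 changed sign between these scalings, and the other 8 called genes did not.

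The largest substrate class held 6 genes for enzymes that glucosylate phenolic acids and monolignols, the acids and alcohols of sinapate ester and lignin synthesis. Of these, UGT84A1 and UGT84A3 rose, UGT72E1 fell and UGT84A4, UGT72E2 and UGT72E3 did not pass as deposited. Among all tested probe sets the higher calls were 3.97% and the lower calls 19.6%. UGT84A1 and UGT84A3 encode enzymes that make glucose esters of hydroxycinnamic acids such as 4-coumarate. UGT84A1 read 29.0 and 31.0 in ABA shoots and 8.33 and 9.31 in mock shoots. Both ABA arrays were well above both mock arrays, and the mean went from 8.82 ± 0.690 to 29.98 ± 1.43 (SD, n = 2 arrays each), a 3.40-fold ratio of intensities. Its log2 change was 0.89 (SE 0.040, limma adjusted p = 0.0170). The mock replicate 1 value exceeded that array's noise level by little (8.33 against 7.64), so the size of the change depends on the constant added, at 1.66 with 1 and 0.37 with 64.

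UGT84A3 was bright in both groups, at 170.3 and 180.02 in ABA and 91.4 and 98.0 in mock shoots. The groups did not overlap, and the mean rose 1.85-fold, from 94.7 ± 4.68 to 175 ± 6.90 (SD, n = 2; log2 change 0.79, SE 0.052, limma adjusted p = 0.0199). UGT84A4, a relative whose product makes sinapate and other hydroxycinnamate glucose esters, read 11.1 and 13.2 in ABA and 11.4 and 14.6 in mock shoots. These values overlapped, and the log2 change of -0.044 had a 95% confidence interval from -0.33 to 0.24.

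UGT72E1, whose enzyme glucosylates coniferyl and sinapyl aldehydes, had the steepest fall among the 40 genes. It read 5.30 and 7.53 in ABA shoots, below the noise level of both arrays, and 48.4 and 45.3 in mock shoots. The mean went from 46.8 ± 2.20 to 6.42 ± 1.58 (SD, n = 2), a level at least 5.76-fold lower when the noise level stands in for the ABA value. Its log2 change was -1.49 (SE 0.071, limma adjusted p = 0.0173), and it was -1.29 after quantile normalization (adjusted p = 0.0283). UGT72E2, which encodes an enzyme that makes the glucosides of coniferyl and sinapyl alcohol, read 6.06 and 9.58 in ABA and 17.4 and 12.4 in mock shoots. Both ABA values lay below both mock values, with a log2 change of -0.38 (SE 0.14) that did not pass as deposited (limma adjusted p = 0.168). The ABA replicate 1 value was below that array's noise level of 7.54. UGT72E2 passed when probe sets below the 40th percentile of mean intensity were left out of the fit (limma adjusted p = 0.0336). With that filter and quantile normalization together it did not (-0.20, limma adjusted p = 0.239). UGT72E3, the third member of the subfamily, was below 0 on all 4 arrays and carries no change. UGT72B3, a member of another UGT72 subfamily, fell by 0.20 (SE 0.027, limma adjusted p = 0.0371), from 18.3 and 17.4 to 13.7 and 13.2. That fall was smaller than the median change of -0.24 among probe sets of like intensity, and after quantile normalization its change was 0.0083.

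**Figure D3:**
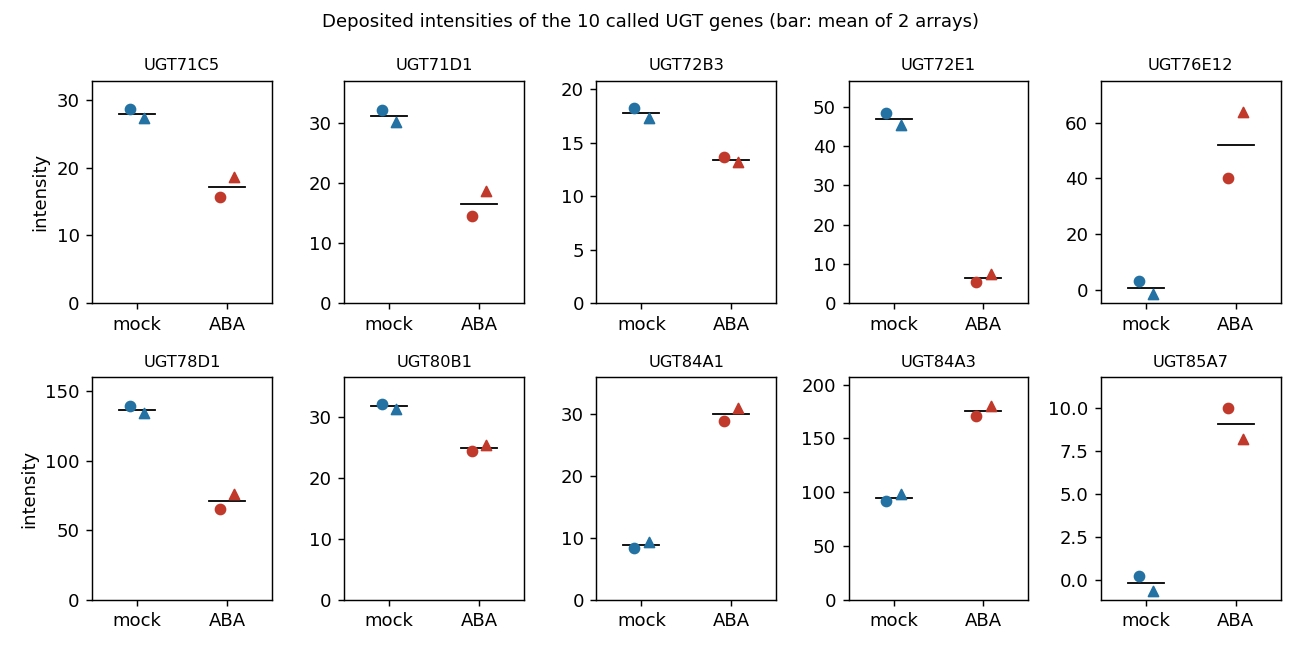
Deposited intensity (vertical axis, arbitrary linear units) of the 10 called UGT genes on the mock (blue) and ABA (red) arrays, with circles for replicate 1, triangles for replicate 2 and a bar at each mean of 2 arrays. In each of the 10 panels the ABA and mock points do not overlap, and the axes differ between panels.

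Within the UGT76 family, UGT76E12 had the steepest rise of the 40 genes. It read 40.3 and 63.6 in ABA shoots and 3.09 and -1.65 in mock shoots, where both values lay below noise. The ABA arrays were far above the mock arrays but differed from each other, with means of 51.9 ± 16.5 and 0.721 ± 3.35 (SD, n = 2). The level was at least 6.34-fold higher with the noise level standing in for mock. On the log2 scale the change was 1.94 (SE 0.24, limma adjusted p = 0.0343). With a constant of 1 in place of 16 the change was 4.67 and no longer passed (adjusted p = 0.0723), and with 64 it was 0.82. UGT76E11, which encodes an enzyme active on flavonols, read 114 and 176 in ABA and 101 and 87.5 in mock shoots. Both ABA values were higher, yet the ABA replicates were far apart, and its log2 change of 0.52 (SE 0.25) did not pass as deposited (limma adjusted p = 0.261). It passed when probe sets below the 40th percentile of mean intensity were left out of the fit (adjusted p = 0.0353). It did not pass after quantile normalization (0.79, adjusted p = 0.167) or under spike scaling (0.10, adjusted p = 0.767). It passed with that filter and quantile normalization together (0.79, limma adjusted p = 0.0153), a setting chosen after seeing the data.

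UGT76C1 and UGT76C2 encode enzymes that inactivate cytokinins by attaching glucose to a ring nitrogen. UGT76C1 read 35.5 and 38.3 in ABA and 26.7 and 22.3 in mock shoots. The groups did not overlap, and the log2 change of 0.39 (SE 0.076) did not pass as deposited (limma adjusted p = 0.0634) but did after quantile normalization (0.66, adjusted p = 0.0447), making it the fifth higher call there. Under spike scaling its change was 0.077 (adjusted p = 0.441). UGT76C2 read 17.6 and 15.9 in ABA and 17.1 and 24.2 in mock shoots, with overlapping groups and a log2 change of -0.16 (SE 0.13, limma adjusted p = 0.475). UGT76D1, for an enzyme of dihydroxybenzoic acid conjugation, stayed near the noise level, between 5.11 and 8.82 on the 4 arrays (log2 change 0.061).

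The flavonoid class had 5 members, of which 1 fell, a share like the 19.6% of all probe sets, 0 rose and 4 did not pass. UGT78D1, which encodes the flavonol 3-O-rhamnosyltransferase, read 65.2 and 76.2 in ABA and 139 and 134 in mock shoots. The ABA values were about 0.517 of the mock values, with means of 70.7 ± 7.78 and 137 ± 3.18 (SD, n = 2; log2 change -0.82, SE 0.082, limma adjusted p = 0.0274). After quantile normalization the change was -0.55 and no longer passed (adjusted p = 0.0586), while it passed after median centring (-0.62) and spike scaling (-1.23). It also passed with the 40th percentile filter and quantile normalization together (-0.55, limma adjusted p = 0.00788).

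UGT78D2, for the glucosyltransferase of flavonols and anthocyanidins, read 186 and 172 in ABA and 199 and 201 in mock shoots. Both ABA arrays lay slightly lower, but the log2 change of -0.15 (95% confidence interval -0.31 to 0.011) did not pass as deposited, and after quantile normalization it was 0.079. Under spike scaling, where 41.7% of all probe sets were called lower, it passed (-0.59, limma adjusted p = 0.0255). UGT78D3, for an arabinosyltransferase of flavonols, lay below noise on all 4 arrays. UGT73B2, a flavonoid glucosyltransferase gene whose probe set is the only 1 of the 40 of a kind that can bind related transcripts, read 51.2 and 68.4 in ABA and 45.9 and 40.2 in mock shoots (log2 change 0.35, SE 0.15, limma adjusted p = 0.221).

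Among genes for ABA-conjugating enzymes, UGT71C5 fell and UGT71B6 and UGT71B8 did not pass. UGT71C5, whose enzyme makes ABA glucose ester in Arabidopsis leaves, read 15.7 and 18.6 in ABA and 28.6 and 27.3 in mock shoots. Both ABA arrays were below both mock arrays, with a ratio of means of 0.614 and a log2 change of -0.41 (SE 0.060, limma adjusted p = 0.0420). The median change among probe sets of like intensity was -0.24. After quantile normalization UGT71C5 changed by -0.15 without passing (adjusted p = 0.202). UGT71B6, for another ABA glucosyltransferase, was below 0 on each array, between -4.46 and -1.01. Its relative UGT71B8 read 9.35 and 14.1 in ABA and 11.8 and 16.8 in mock shoots (log2 change -0.13, 95% confidence interval -0.62 to 0.36). UGT84B1 and UGT84B2, which act on auxin and in vitro on ABA, were near or below 0, at 7.64 or less on every array.

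UGT74D1, another auxin glucosyltransferase gene, was bright in both groups, at 96.0 and 116 in ABA and 81.6 and 91.3 in mock shoots. Both ABA values were higher, but the log2 change of 0.25 (SE 0.12, limma adjusted p = 0.254) did not pass. It passed after median centring (0.45, adjusted p = 0.0480), was 0.51 after quantile normalization (adjusted p = 0.109) and turned to -0.16 under spike scaling. It also passed with the 40th percentile filter and quantile normalization together (0.51, limma adjusted p = 0.0160). No gene of the hormone classes rose as deposited, where 3.97% of all probe sets did. Of their 9 members UGT71C5 alone fell, where 19.6% of all probe sets did. UGT71B6, UGT84B1, UGT84B2 and UGT76D1 lay near or below noise, where a change could hardly be called.

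The other UGT71 genes have no substrate class assigned here. UGT71D1 fell, from 32.1 and 30.1 in mock to 14.5 and 18.6 in ABA shoots (ratio of means 0.532, log2 change -0.54, SE 0.084, limma adjusted p = 0.0462). Its change after quantile normalization was -0.28 and did not pass (adjusted p = 0.151). UGT71B1 read 191 and 213 in ABA and 239 and 211 in mock shoots, with overlapping groups (log2 change -0.14). UGT71B5, UGT71C1, UGT71C2 and UGT71C3 lay below noise on all 4 arrays. Of all 9 UGT71 genes 2 fell, near the 19.6% of all probe sets, and 0 rose. Their median log2 change was -0.22, and 0 fell after quantile normalization.

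In the UGT85 family 1 of 5 genes rose and 0 fell, where 3.97% and 19.6% of all tested probe sets did. UGT85A7 went from 0.273 and -0.597 in mock to 10.001 and 8.21 in ABA shoots. The groups were apart, but 1 of the 2 ABA values lay below its array's noise level, so the log2 change of 0.64 (SE 0.049, limma adjusted p = 0.0217) rests on a faint signal. UGT85A2 read 17.9 and 22.8 in ABA and 33.6 and 28.8 in mock shoots (log2 change -0.38, SE 0.11, limma adjusted p = 0.111). UGT85A5 read 26.2 and 27.5 in ABA and 15.9 and 21.1 in mock shoots (log2 change 0.32, SE 0.097, limma adjusted p = 0.128). UGT85A2 and UGT85A5 thus lay on opposite sides of 0, neither past the threshold as deposited. Both passed when probe sets below the 40th percentile of mean intensity were left out of the fit (limma adjusted p = 0.0232 and 0.0416). After quantile normalization neither passed (adjusted p = 0.566 and 0.0656). With that filter and quantile normalization together UGT85A5 passed (0.56, limma adjusted p = 0.00788) and UGT85A2 did not (-0.11, limma adjusted p = 0.492). UGT85A2 also passed under spike scaling (-0.67, adjusted p = 0.0185) and UGT85A5 after median centring (0.52, adjusted p = 0.0290). UGT85A4 read 1.89 and 4.78 in ABA, below noise, and 12.8 and 10.5 in mock shoots (log2 change -0.52, SE 0.11, limma adjusted p = 0.0685). It passed under spike scaling (-0.66, limma adjusted p = 0.0229). UGT85A3 was below noise throughout.

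UGT87A2, known for a role in flowering time, read 254 and 239 in ABA and 155 and 111 in mock shoots. Both ABA values were well above both mock values, with a ratio of means of 1.86, yet the mock replicates differed and the log2 change of 0.84 (SE 0.19) did not pass as deposited (limma adjusted p = 0.0782). It passed after median centring (1.04, adjusted p = 0.0211) and when probe sets below the 40th percentile of mean intensity were left out of the fit (0.84, adjusted p = 0.00228). It did not pass after quantile normalization (1.08, adjusted p = 0.0787) or under spike scaling (0.40, adjusted p = 0.206). With that filter and quantile normalization together it passed (1.08, limma adjusted p = 0.00263). The change was 0.62 without mock replicate 2 and 1.05 without mock replicate 1.

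UGT80B1, which encodes a sterol glucosyltransferase active in the seed coat, fell by 0.23 (SE 0.026, limma adjusted p = 0.0318), from 32.2 and 31.4 to 24.4 and 25.4. The median change among probe sets of like intensity was larger, at -0.36, and UGT80B1 changed by 0.050 after quantile normalization. UGT74B1, for the enzyme that adds glucose to the sulfur of glucosinolate precursors, read 273 and 295 in ABA and 352 and 325 in mock shoots. Its groups did not overlap, and the log2 change of -0.24 (SE 0.067) did not pass as deposited (limma adjusted p = 0.110). The change was -0.015 after quantile normalization, and it passed under spike scaling (-0.70, limma adjusted p = 0.00802). UGT88A1 read 257 and 226 in ABA and 239 and 235 in mock shoots. These values overlapped, the log2 change was 0.025 with a 95% confidence interval from -0.23 to 0.28, and its sign turned under spike scaling (-0.42).

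The 4 UGT73 genes held no call as deposited. UGT73B2 passed after median centring (0.55, limma adjusted p = 0.0479), but not after quantile normalization (0.66, adjusted p = 0.104). It also passed with the 40th percentile filter (limma adjusted p = 0.0496), and with that filter and quantile normalization together (0.66, adjusted p = 0.00917). Under spike scaling its change was -0.0093. UGT73B3, a stress- and pathogen-responsive gene, read 29.7 and 48.3 in ABA and 32.4 and 20.1 in mock shoots, with overlapping groups (log2 change 0.37, SE 0.28, limma adjusted p = 0.437). It passed only with the 40th percentile filter and quantile normalization together (0.65, adjusted p = 0.0392). UGT73D1 was below noise on all arrays, and UGT73C7 was above it on 1 array only.

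**Figure D4:**
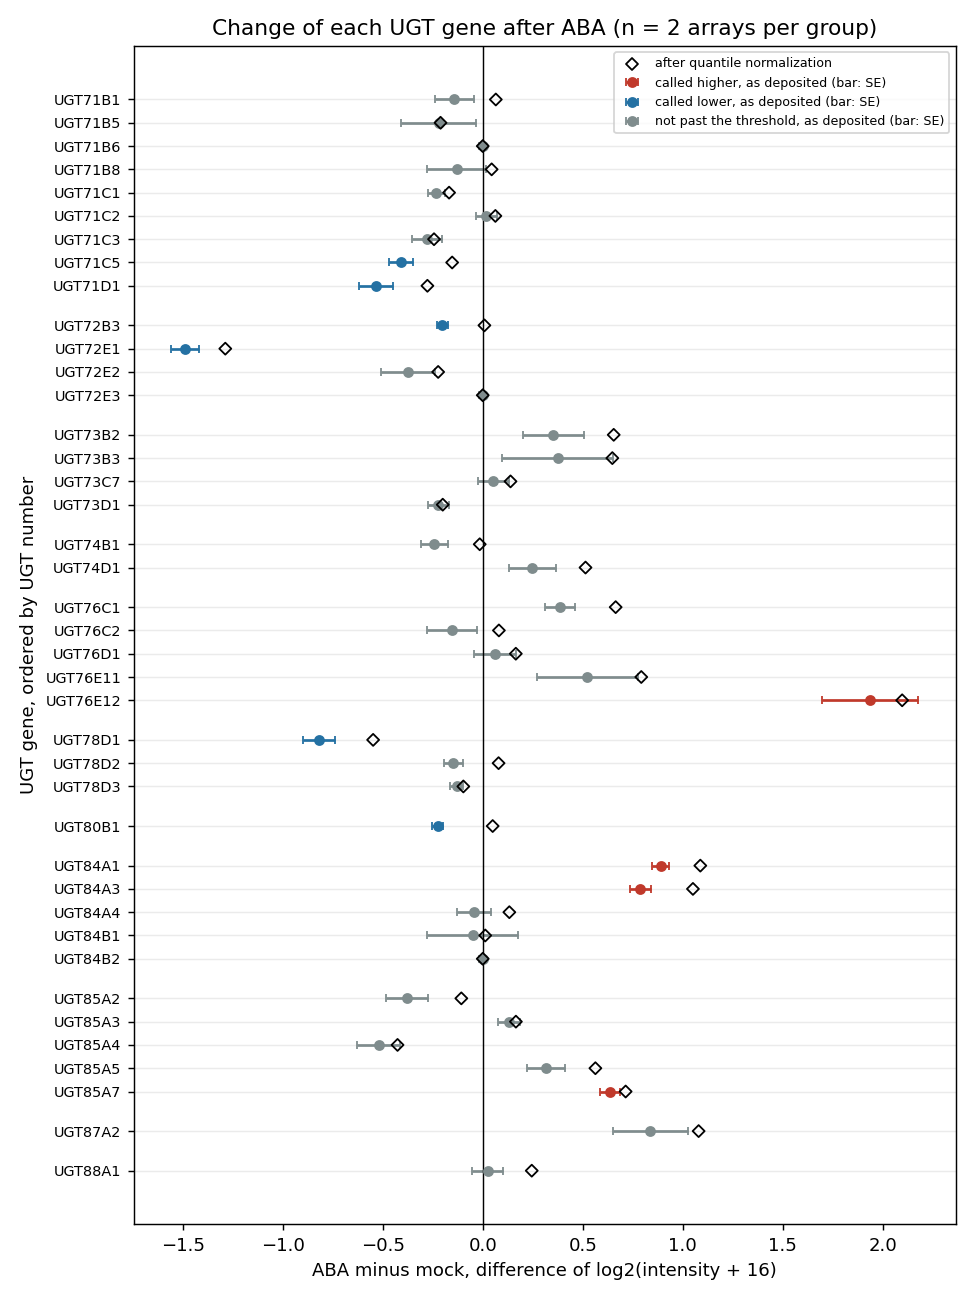
Log2 change after ABA (horizontal axis, ABA minus mock, with SE bars, n = 2 arrays per group) of each UGT gene by UGT number (vertical axis), red for called higher, blue for called lower, grey for not past the threshold; open diamonds give the change after quantile normalization. The diamonds of all 22 genes above noise on every array lie to the right of their circles, and 7 of these cross 0, those of UGT71B1, UGT71B8, UGT72B3, UGT76C2, UGT78D2, UGT80B1 and UGT84A4.

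Many UGT genes stand side by side on the chromosomes. With at most 3 other protein-coding genes between neighbours in the RefSeq table, 27 of the 40 fell into 11 clusters of up to 4 genes, and 13 stood apart. A call was present in 5 clusters, and every gene was called in 0. Clusters with calls in both directions numbered 0, but only the UGT84A cluster held more than 1 call, so only it could have shown this. Over all tested probe sets 3.97% were called higher and 19.6% lower. On chromosome 4, UGT84A1 (AT4G15480), UGT84A3 (AT4G15490) and UGT84A4 (AT4G15500) lie next to each other, and the first pair rose by 0.89 and 0.79 while UGT84A4 changed by -0.044. On chromosome 3, UGT76E12 (AT3G46660) rose by 1.94 beside UGT76E11 (AT3G46670) at 0.52. On chromosome 1, UGT85A7 (AT1G22340) rose by 0.64, and its neighbours UGT85A2, UGT85A5 and UGT85A3 lay at -0.38, 0.32 and 0.13 without passing as deposited. UGT71C5 (AT1G07240) fell by 0.41 with UGT71C3 nearby at -0.28, and UGT71D1 (AT2G29730) fell by 0.54 near UGT71C2 and UGT71C1 at 0.018 and -0.23, none of these 3 neighbours past the threshold or above noise. The differences between neighbours were not tested.

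**Figure D5:**
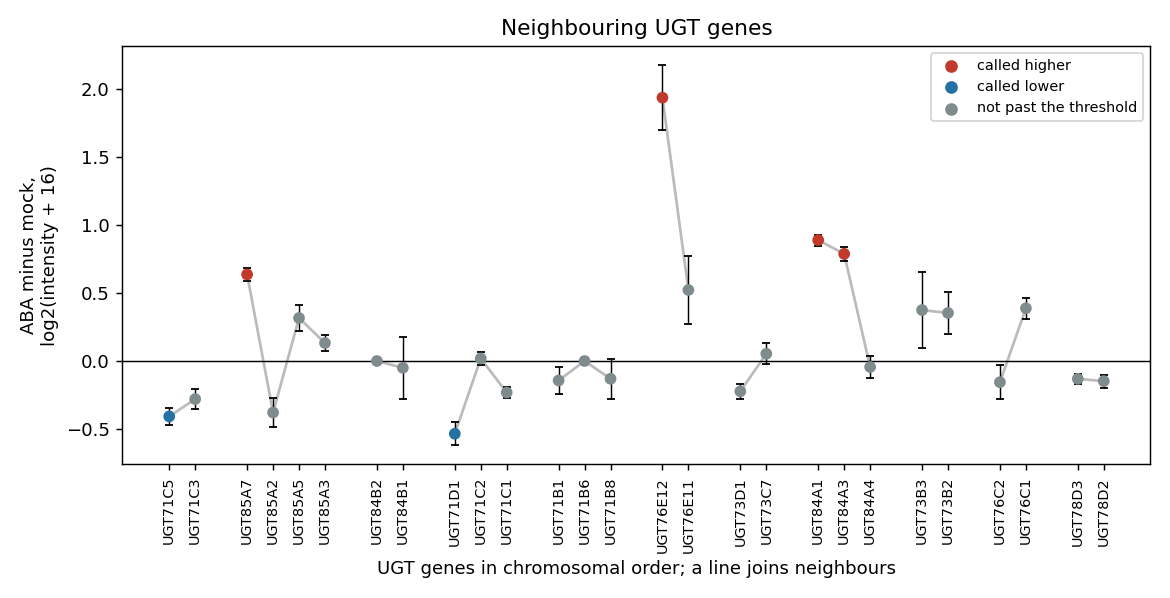
Log2 change after ABA (vertical axis, ABA minus mock, with SE bars, n = 2 arrays per group) of the 27 UGT genes in 11 chromosomal clusters, in chromosomal order (horizontal axis), with a grey line joining the neighbours of a cluster. UGT84A1 and UGT84A3 are both high beside UGT84A4 near 0, and UGT76E12 is high beside UGT76E11, which did not pass as deposited.

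A further 4 genes on the array carry a UGT name only as a synonym. SGT, the sterol glucosyltransferase also called UGT80A2, read 11.8 and 13.4 in ABA and 37.0 and 31.5 in mock shoots. It fell by 0.81 (SE 0.079, limma adjusted p = 0.0264), or by 0.57 without passing after quantile normalization (adjusted p = 0.0523). With the 40th percentile filter and quantile normalization together SGT passed (limma adjusted p = 0.00646). GT72B1, also called UGT72B1, whose enzyme conjugates monolignols and chlorinated phenols, read 136 and 138 in ABA and 115 and 120.3 in mock shoots. It rose by 0.19 (SE 0.030, limma adjusted p = 0.0465), and by 0.44 after quantile normalization, but its change under spike scaling was -0.23, and it did not pass with a constant of 1 (adjusted p = 0.0800) or with the filter at the 40th percentile (adjusted p = 0.131). UF3GT, an anthocyanin glycosyltransferase gene also called UGT79B1, had overlapping groups (log2 change -0.019). AT5G54010, also called UGT79B6, was below noise.

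Few genes of the surrounding pathways could be named. Of 16 genes of ABA synthesis, breakdown and release, 1 was named, BGLU33, for a beta-glucosidase that releases ABA from its glucose ester. BGLU33 read 45.1 and 53.9 in ABA and 103 and 101 in mock shoots and fell by 0.85 (SE 0.086, limma adjusted p = 0.0274), with -0.55 after quantile normalization (adjusted p = 0.0565). With the 40th percentile filter and quantile normalization together BGLU33 passed (limma adjusted p = 0.00761). Of 26 genes of phenylpropanoid and flavonoid synthesis 3 were named and 0 passed. HCT, of monolignol synthesis, had the largest change among them, at -0.58 (SE 0.11, limma adjusted p = 0.0562). Of 16 glucosinolate genes BCAT4 alone was named, at -0.59 (SE 0.12, limma adjusted p = 0.0683), and of 28 genes of UDP-sugar supply 0 were named. The median change among probe sets of like intensity was -0.36 for BGLU33 and -0.33 for HCT and BCAT4. In those intensity groups 36.2% and 36.3% of probe sets were called lower, against 19.6% of all tested probe sets.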

How the data were processed

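Total RNA of 4 shoot pools was amplified with biotin and hybridised to 1-colour arrays, per the labels' protocols. The authors deposited 1 linear intensity per probe set and array. How those intensities were background-corrected, summarised and scaled is not given, nor were detection calls or scan batches used. They ran from -50.9 to 2223, with 12.8% to 13.7% below 0 on each array. The 287 control sets were left out. Symbols were read from the platform annotation and updated by gene identifier through RefSeq. From the deposited intensity, log2(intensity + 16) was computed with values below 0 set to 0, and the scaling was kept. Treatment alone was fitted to all 19371 tested probe sets with limma (version 3.58.1, R version 4.3.3; lmFit, then eBayes, two-sided tests), with Benjamini-Hochberg adjustment. The fit was tested on simulated data. The precision is limited by the number of arrays, 2 per group.

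Members and lists were chosen with earlier results of these data known. The genes named by rule are all called UGT genes, the largest change of each UGT number, the hormone classes, neighbours of called genes and, for each further list, the largest changes. The remaining ones were named after their values were seen. Alternatives are given in the closing section. Samples of the same replicate number did not deviate together (correlation 0.039), so the numbers were not taken as pairs.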

Additional observations from a re-analysis of the deposited data

How the results depend on the processing

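UGT genes called higher and lower (4 and 6 as reported) were 5 and 1 after quantile normalization, 10 and 2 after median centring, 4 and 13 under spike scaling, 8 and 6 with the filter at the 40th percentile, 10 and 2 with that filter and quantile normalization, and 4 and 2 with an intensity trend in limma's prior. For all probe sets (769 and 3805), the counts were 892 and 1011, 1878 and 2424, 525 and 8085, 1063 and 5809, 1721 and 2278, and 756 and 3430 under these settings in turn. Spike scaling used 9 control sets whose log2 ratios ran from 0.11 to 0.74. With the replicate block, 0 genes were called higher and 0 lower, both among UGT genes and among all probe sets (limma, 14 UGT genes at an unadjusted p under 0.05), a fit with 1 fewer residual degree of freedom. Of the 6 lower calls, UGT71C5 and UGT71D1 were lost with a pseudocount of 1 and with the trend, and UGT72B3 and UGT80B1 with the trend, with the filter, and with values below 0 kept. Leaving out 1 array also gave 0 calls in each case. The filter tests fewer genes, 25 of the 40, and leaves out the dimmest 40% of probe sets. Counts under it are therefore not shares of 40 genes or of 19371 probe sets.

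The median log2 change of the UGT genes (-0.047) was 0.056 after quantile normalization, 0.15 after median centring, -0.22 under spike scaling, -0.11 and -0.017 with pseudocounts of 1 and 64, -0.025 with values below 0 kept, -0.13 with the filter and -0.13 without probe sets at or below 0 on every array, 0.082 with filter and quantile normalization, and -0.067 to -0.0058 with 1 array left out. UGT72B3 reversed to 0.0083 after quantile normalization and 0.011 with the filter added, and UGT80B1 to 0.050 and 0.050. The cause was not tested. Each UGT gene has 1 probe set, so averaging probe sets gave no other value, and adding the 4 genes with a UGT synonym gave 5 higher and 7 lower. The filter with quantile normalization and the fit without the 1194 probe sets at or below 0 were chosen after seeing the data.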
